A study of Homo sapiens with 4 samples.

Results

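UBE2D1, UBE2D2, UBE2D3 and UBE2D4 are the members of the UBE2D family of ubiquitin-conjugating enzymes, and their mRNA was followed in gastric cancer cells that carried a control vector or overexpressed YTHDF1. The members were taken as the rows with these 4 symbols out of 46427 genes in the table, and all 4 passed the filter on low counts that left 17781 genes. They were chosen from the nascent protein data that the study gives for UBE2D1 and UBE2D3 in the same vector comparison, so their vector differences are given as a description, with no test. The cells were SNU638, an established human gastric cancer line, transfected with a plasmid without insert or with one encoding YTHDF1, a reader protein that binds N6-methyladenosine (m6A) in mRNA. Both groups held 2 biological replicates, numbered 1 and 2. According to the labels, the cells of all 4 libraries were kept without serum for 24 h and given IFN-γ at 10 ng/ml for 8 h. No library thus stands for cells without IFN-γ. The study's figure legends give a longer IFN-γ exposure, and both groups were treated alike.

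The libraries held between 57398137 and 60864942 counts. YTHDF1 itself was read first as a check of the labels. Its level, in CPM (read counts scaled to a common library size), was 82.2 and 80.3 in the control libraries and 16488.9 and 2627 in the YTHDF1 libraries, so both YTHDF1 libraries were far above control but differed from each other. Epithelial markers (EPCAM, CDH1, KRT8, KRT18 and KRT19) summed to between 3859 and 6716 CPM, and each was detected in every library. Immune markers stayed at or under 1.04 CPM in sum, with 5 of 5 under 1 CPM in every library, as were 3 of 3 endothelial markers. Fibroblast markers summed to between 6.14 and 11.1 CPM, with 3 of 4 under 1 CPM and COL1A1 taking nearly all of the sum.

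Ubiquitin is passed along a chain of enzymes. An E1 enzyme activates it, an E2 enzyme such as a UBE2D protein carries it on a catalytic cysteine, and an E3 ligase brings the loaded E2 to a substrate. UBE2D enzymes are known as broadly used E2s that serve many RING-type and HECT-type E3 ligases, among them MDM2, CBL and the SCF complex with β-TrCP, whose substrates include the NF-κB inhibitor IκB. They often place the first ubiquitin on a substrate, after which other E2s lengthen the chain.

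The 4 genes lie on 4 chromosomes. In GRCh38 with the GENCODE 29 annotation, UBE2D1 (gene ID 7321) is at chr10:58334975-58370753 on the plus strand. UBE2D2 (gene ID 7322) is at chr5:139526431-139628433 on the plus strand. UBE2D3 (gene ID 7323) is at chr4:102794383-102868896 on the minus strand. UBE2D4 (gene ID 51619) is at chr7:43926438-43956136 on the plus strand. The transcript taken for each gene has a coding sequence of 441 bases for 147 residues, spread over 7 coding exons. What differs is the noncoding part, since the bases after the stop codon number 1988 in UBE2D1, 1632 in UBE2D2, 3029 in UBE2D3 and 3441 in UBE2D4.

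The encoded proteins are closely alike. UBE2D2 and UBE2D3 shared 143 of 147 residues (97.3%), while UBE2D1 shared 131 with UBE2D2 (89.1%), 130 with UBE2D3 (88.4%) and 135 with UBE2D4 (91.8%). All 4 proteins had the same residue at 128 of 147 positions. The coding DNA was less alike, with 293 of 441 bases the same in all 4 and 86.6% identity between UBE2D2 and UBE2D3 as the closest pair. The stretch around the catalytic cysteine shows this best. Coding bases 223 to 282 are printed 5′ to 3′, with capitals at the 17 positions where the 4 genes do not all have the same base. Codon 85, the catalytic cysteine, lies inside this stretch, and all 20 codons encode the same residue in each gene.
UBE2D1: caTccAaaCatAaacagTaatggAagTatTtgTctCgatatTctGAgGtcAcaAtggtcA
UBE2D2: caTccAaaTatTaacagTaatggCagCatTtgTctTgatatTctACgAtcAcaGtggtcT
UBE2D3: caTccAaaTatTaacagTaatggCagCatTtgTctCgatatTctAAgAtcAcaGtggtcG
UBE2D4: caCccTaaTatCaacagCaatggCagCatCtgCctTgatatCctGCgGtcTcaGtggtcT

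These base differences set how well reads can be assigned to one member. Of the windows of 50 bases along each transcript, 0 of 2610 in UBE2D1 occurred in another gene's transcript. The corresponding number was 31 of 2653 in UBE2D2, all shared with UBE2D3. In UBE2D3 it was 158 of 4117 (3.84%), shared with UBE2D2 and with the pseudogenes UBE2D3P1 and UBE2D3P2. In UBE2D4 it was 24 of 3925, shared with unrelated genes and with no other member. No window of 100 bases was shared for any of the 4 genes.

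The most abundant member by far was UBE2D3. Its level was 377.8 and 390.8 CPM in the control libraries and 386.7 and 384.2 CPM in the YTHDF1 libraries, and the groups overlapped. UBE2D2 stood at 74.7 and 71.3 CPM in control and at 75.4 and 73.9 CPM with YTHDF1, again with overlap. UBE2D1 was at 25.2 and 24.99 CPM in control and at 32.1 and 32.1 CPM with YTHDF1. For UBE2D1 both YTHDF1 libraries lay above both control libraries. UBE2D4, the lowest of the family, was at 15.6 and 24.5 CPM in control and at 16.5 and 22.1 CPM with YTHDF1. For UBE2D4 the spread lay between the replicate numbers and not between the vectors.

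**Figure D1:**
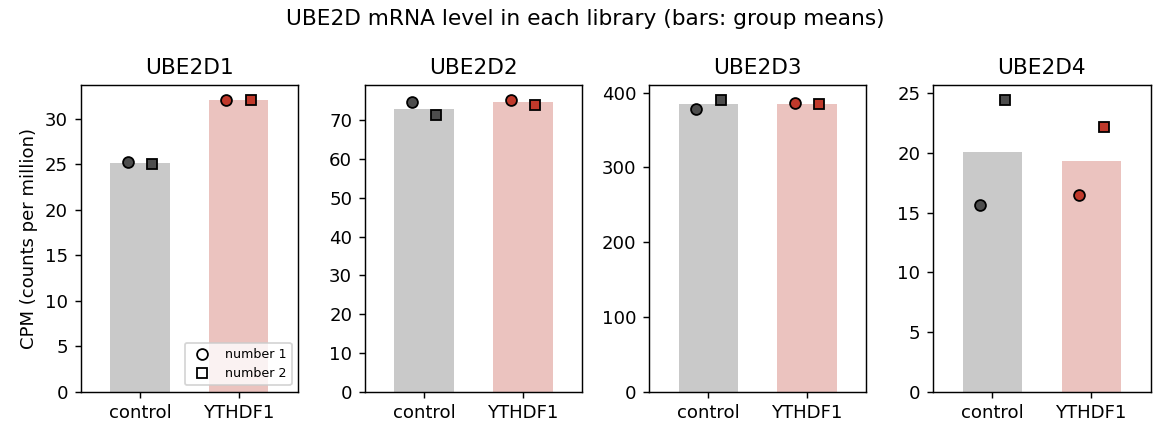
Level of each UBE2D member in CPM (y axis, starting at 0 and with its own scale in each panel) in the control and YTHDF1 groups. Bars are group means of 2 libraries, circles are replicate number 1 and squares are number 2. UBE2D1 sits at 25.2 and 24.99 CPM in control and at 32.1 in both YTHDF1 libraries, and UBE2D4 separates by number.

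Levels were compared between genes only per kilobase of transcript. On this scale UBE2D3 had 92.2 ± 2.20 CPM per kb (SD, n = 2) in control and 92.5 ± 0.424 with YTHDF1. UBE2D2 had 27.0 ± 0.897 and 27.6 ± 0.394 CPM per kb. UBE2D1 had 9.44 ± 0.0608 and 12.1 ± 0.0137 CPM per kb, and UBE2D4 had 5.04 ± 1.57 and 4.86 ± 1.00. The order UBE2D3, UBE2D2, UBE2D1, UBE2D4 was the same in every library, and each neighbouring pair in it was apart by more than its spread over the libraries. Among 41 E2 genes with a transcript length, UBE2D3 ranked 5th by mean CPM per kb, UBE2D2 19th, UBE2D1 33rd and UBE2D4 37th. The E2 with the highest level was UBE2L6, which carries the ubiquitin-like protein ISG15, with a mean of 242.8 CPM per kb. It was followed by UBE2E1, a close relative of the UBE2D enzymes, with 119.6 CPM per kb, although UBE2C, an E2 of the anaphase-promoting complex, was above UBE2E1 in both libraries numbered 1. In single libraries UBE2D3 ranked 4th or 5th, and with all annotated exon bases of each gene as the length, an alternative chosen after seeing the data, it ranked 6th and UBE2D2 20th. The lengths are those of one annotated transcript per gene, and the isoform in use was not measured.

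**Figure D2:**
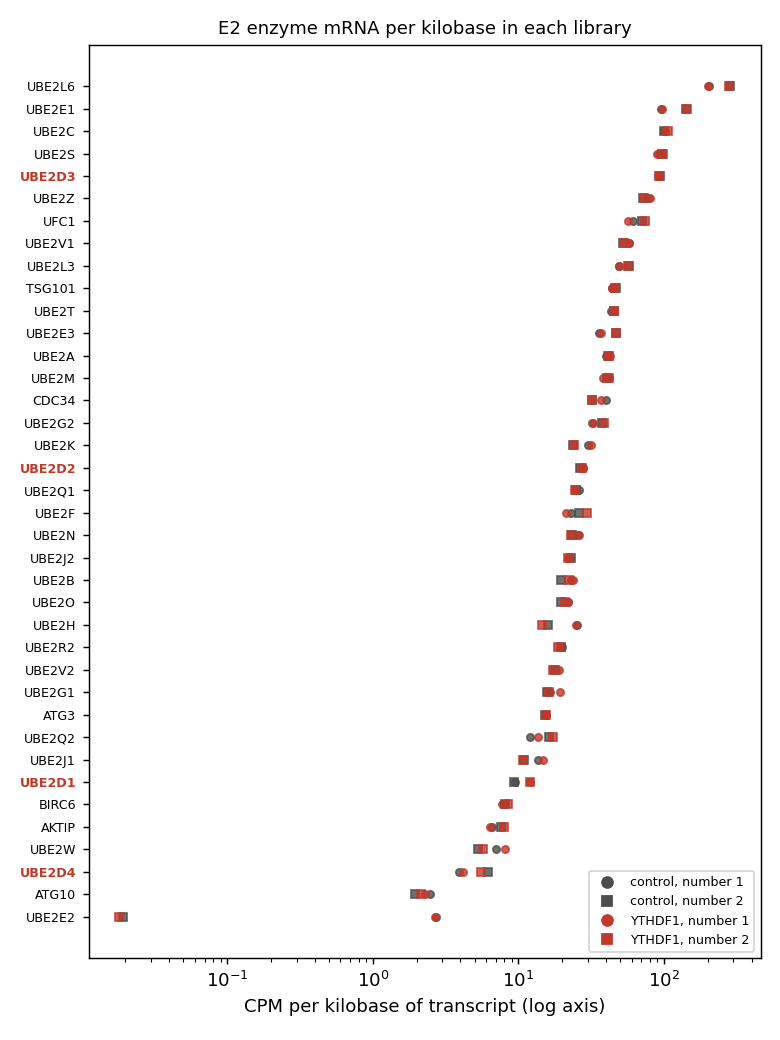
CPM per kilobase of transcript (x axis, log scale) of the E2 genes drawn, ordered by mean level, with the UBE2D members in red type. Gray marks are control and red marks YTHDF1 libraries, circles number 1 and squares number 2. Among the 41 genes ranked, UBE2D3 is 5th, and the other 3 members are 19th, 33rd and 37th. Genes at 0 and 1 further gene are not drawn.

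As a share of the family's counts, UBE2D3 took 76.6% and 76.4% in control and 75.7% and 75.0% with YTHDF1. The share of UBE2D2 ran from 13.9% to 15.1%. UBE2D1 took 5.11% (95% Wilson interval 4.87 to 5.37%) and 4.89% (4.64 to 5.14%) in control. With YTHDF1 it took 6.29% (6.02 to 6.57%) and 6.26% (5.999 to 6.54%). UBE2D4 took 3.17% and 4.78% in control and 3.23% and 4.32% with YTHDF1. These intervals cover counting error only, and the shares are of counts, not scaled by transcript length. Per kilobase, the mean share of UBE2D3 was 69.0% in control and 67.5% with YTHDF1, and that of UBE2D2 was 20.2% in either group. The 4 genes together reached 493.4 and 511.5 CPM in control and 510.7 and 512.3 CPM with YTHDF1, so the lowest family total was in control replicate 1.

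The vector difference of UBE2D1 was 0.35 in log2 CPM between the libraries numbered 1 and 0.36 between those numbered 2. Its group means were 25.1 ± 0.162 CPM (SD, n = 2) in control and 32.1 ± 0.0365 CPM with YTHDF1. The fitted log2 fold change was 0.36 (SE 0.11), or 1.28-fold, which is under the study's size threshold of 0.5. The libraries of one group differed little for this gene, with an SD of 0.0067 in log2 CPM between replicates. This SD rests on 2 libraries a group. At the 1418 to 1938 counts per library of UBE2D1, counting error alone is larger, so the SDs of this gene understate its uncertainty. The difference did not come from 1 library, as the fitted log2 fold change lay between 0.34 and 0.36 with each library left out in turn. YTHDF1 was 16488.9 CPM in one YTHDF1 library and 2627 CPM in the other, and UBE2D1 was 32.1 CPM in both. A relation between the levels of these genes was not tested.

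The other 3 members showed no such separation. UBE2D2 had vector differences of 0.01 and 0.05 in log2 CPM within numbers 1 and 2 and a fitted log2 fold change of 0.03 (SE 0.077). Its group means were 73.0 ± 2.42 CPM (SD, n = 2) and 74.6 ± 1.06 CPM. UBE2D3 had differences of 0.03 and -0.02, with opposite signs, and a fitted value of 0.0042 (SE 0.085). Its means were 384.3 ± 9.17 CPM and 385.4 ± 1.77 CPM (SD, n = 2). UBE2D4 had differences of 0.08 and -0.14, also with opposite signs, and a fitted value of -0.05 (SE 0.31), with means of 20.0 ± 6.25 CPM and 19.3 ± 3.98 CPM (SD, n = 2). Fits that dropped 1 library held no term for the replicate number and left 1 group with a single number. The difference of UBE2D4 between the numbers thus enters its vector difference there. Dropping a control library gave fitted values of -0.34 (number 1) and 0.30 (number 2). Dropping a YTHDF1 library gave 0.14 (number 1) and -0.29 (number 2). These values therefore cannot show whether the sign for UBE2D4 rested on single libraries. With the number as a block and all libraries kept, the fitted value was -0.04.

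Over all 17781 genes, edgeR's quasi-likelihood test found 18 genes (0.101%) with a log2 difference of 0.5 or more in size and an unadjusted p under 0.05, 4 higher and 14 lower with YTHDF1. No gene passed at an adjusted p under 0.05, while 24 had an unadjusted p under 0.05 at any size, and DESeq2's Wald test gave 3 genes at the adjusted threshold. Neither model held a term for the replicate number, by which 51.8% of all genes differed at an adjusted p under 0.05 in edgeR's test. With the number as a block, edgeR's test called 192 genes at the study's threshold and 10 at an adjusted p under 0.05. The SEs given for vector differences came from the edgeR fit without a block. All 4 members had a fitted difference under 0.5 in size, so none could be among the 18 genes, and no p is given for them. UBE2D1 was the 1 member whose groups did not overlap, where 5.67% of all genes lay higher in both YTHDF1 libraries and 5.83% lay lower. Nothing is read from that count, since the members were chosen with the same comparison in view.

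Over all genes tested, 11.8% had a larger fitted vector difference than UBE2D1 in either direction. Of 2583 genes within 0.5 log2 CPM of it, 3 (0.116%) did, and they are named here after their values were seen. TRNL1, a mitochondrial tRNA gene, had a fitted log2 fold change of -0.36, with differences of -0.27 and -0.43 within the numbers. DKK1, a secreted WNT antagonist, had 0.38 but differences of 0.38 and -0.16 within the numbers, and SCLY, a selenocysteine lyase, had 0.38 with differences of -0.08 and 0.90. The corresponding shares were 54.3% of 2438 genes for UBE2D2, 89.8% of 324 for UBE2D3 and 50.9% of 2229 for UBE2D4. Nothing is read from these shares, since the members were chosen with the same comparison in view.

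Over all 17781 genes, 324 were higher with YTHDF1 in both numbers by at least the smaller of the differences of UBE2D1, and 478 were lower by as much. Among the 9992 genes with a mean of at least 10 CPM, these numbers were 4 and 2. The 4 were UBE2D1 itself, YTHDF1, HSPE1-MOB4 and DERPC, also named after their values were seen. DERPC went from 63.1 and 59.7 CPM in control to 87.1 and 78.9 CPM with YTHDF1, and HSPE1-MOB4, a readthrough of neighbouring genes, from 10.3 and 7.05 to 20.7 and 10.2 CPM. The 2 lower genes were RNA45SN1, a ribosomal RNA precursor gene, and BLOC1S5-TXNDC5, another readthrough, which was at 41.7 and 0.247 CPM in control and at 1.68 and 0 CPM with YTHDF1, so that 1 control library put it above a mean of 10 CPM. These counts rest on the same comparison that chose the members and are a description.

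**Figure D3:**
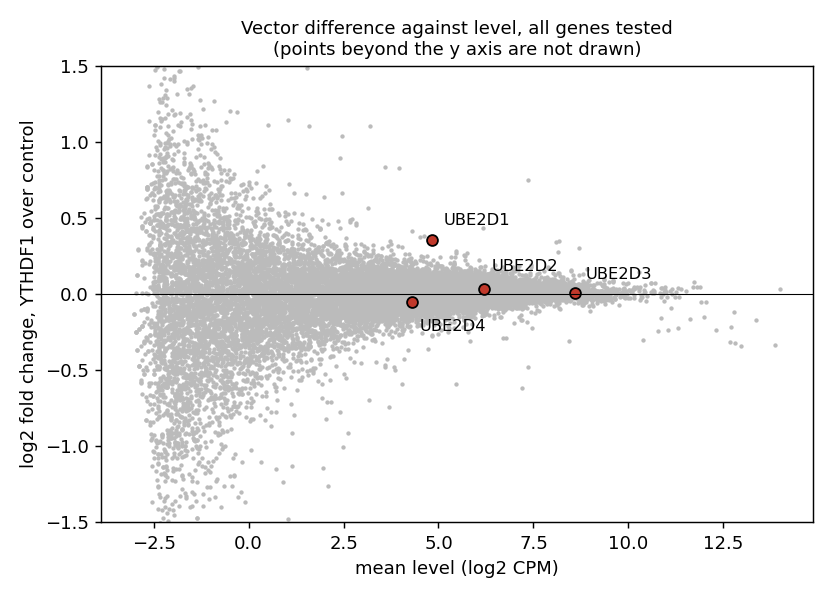
Fitted log2 fold change of YTHDF1 over control (y axis) against mean level in log2 CPM (x axis) for the genes tested, in gray, with the UBE2D members in red. The y axis ends at 1.5 in either direction, and 74 genes beyond it are not drawn. UBE2D1, at 0.36, lies at the upper edge of the genes of its level, and the other 3 members lie near 0.

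The family was then set beside the other genes of the ubiquitin pathway. In 9 lists of E1, E2 and E3 enzymes, ubiquitin genes and related factors, edgeR's test without a block called no gene at the threshold of the study. In that fit no listed gene had an unadjusted p under 0.05. DESeq2's Wald test also called none, nor did edgeR's test with the replicate number as a block. For comparison, the fit without a block called 0.101% of all genes, and the median log2 fold change over all genes was 0.0047.

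The UBE2E relatives, which share the catalytic core of UBE2D and have an added N-terminal part, had a median log2 fold change of 0.03 over 3 of 3 genes tested. UBE2E1 was at 143.4 and 213.7 CPM in control and at 147.1 and 218.6 CPM with YTHDF1, which overlap. UBE2E3 was at 55.8 and 73.7 CPM and at 57.9 and 74.1 CPM. UBE2E2 was at 7.42 CPM in control number 1 and 7.40 CPM in YTHDF1 number 1, but at 0.0529 and 0.0497 CPM in the libraries numbered 2. The 3 genes thus had near equal values with either vector and differed by number.

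Of 27 other ubiquitin E2 genes, 24 were tested, and their vector log2 fold changes ran from -0.08 to 0.16 with a median of 0.02. UBE2D1, at 0.36, was outside that range, which is a description only, since the members were chosen with this comparison in view. In this list 1 gene, UBE2C, was higher in both YTHDF1 libraries and 3 were lower, UBE2J2, UBE2Q1 and UBE2R2, all named after their values were seen. Over all genes these shares were 5.67% higher and 5.83% lower. The 3 of this list with the highest mean CPM were UBE2S, which extends chains with the anaphase-promoting complex, UBE2K and UBE2L3. UBE2S had a vector log2 fold change of -0.0074 (SE 0.098), UBE2K had 0.05 (SE 0.21) and UBE2L3 had -0.0061 (SE 0.14). The 8 E2 enzymes of other modifiers had a median of 0.0027, among them UBE2L6 at -0.02 (SE 0.26) and UBE2Z at 0.03 (SE 0.10). In this list 1 gene, ATG3 of the autophagy pathway, named after its values were seen, was higher in both YTHDF1 libraries, at 46.4 and 46.5 CPM against 45.97 and 45.8 CPM.

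Upstream of the E2 step, 9 E1 genes had a median vector log2 fold change of -0.0096. UBA1 and UBA6, the ubiquitin-activating enzymes that load E2s, were at -0.02 (SE 0.13) and 0.0075 (SE 0.24), and the SUMO E1 subunit SAE1 was at 0.0044 (SE 0.12). The 4 ubiquitin genes had a median of -0.02, with UBB at 0.02 (SE 0.12) and RPS27A at -0.03 (SE 0.12). Ubiquitin supply and activation thus held no called gene.

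Downstream, 28 E3 ligase genes known to work with UBE2D enzymes had a median vector log2 fold change of 0.01, from -0.41 to 0.21. MDM2, the p53 ligase, was at 0.06 (SE 0.29), TRIM25, which acts in RIG-I signaling, at -0.0067 (SE 0.10) and DTX3L at 0.05 (SE 0.12). The 6 genes of the SCF complex with β-TrCP and its NEDD8 modifier had a median of 0.05, with SKP1 at 0.07 (SE 0.095), CUL1 at 0.03 (SE 0.16) and NEDD8 at -0.0095 (SE 0.097). OTUB1, a deubiquitinase that also binds and blocks UBE2D enzymes, was at 115.1 and 151.0 CPM in control and at 113.1 and 156.7 CPM with YTHDF1. The 5 genes of ISG15 conjugation had a median of -0.02, including ISG15 at 0.04 (SE 0.082) and USP18, which removes ISG15, at -0.01 (SE 0.17).

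**Figure D4:**
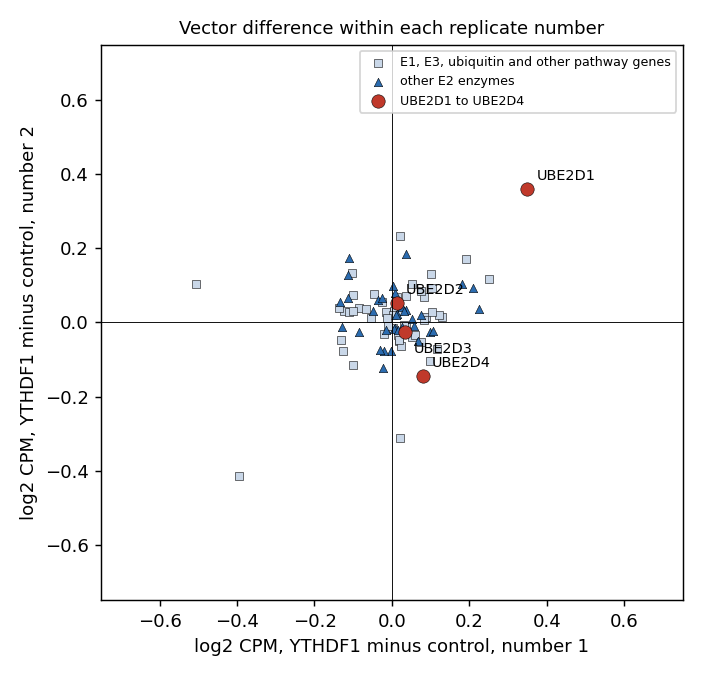
Difference in log2 CPM of YTHDF1 minus control between the libraries numbered 1 (x axis) and between those numbered 2 (y axis), for the UBE2D members (red circles), other E2 genes (blue triangles) and further genes of the ubiquitin pathway (pale squares). UBE2D1 sits alone at the upper right, at 0.35 and 0.36, and the other members lie near the origin.

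The replicate numbers gave a comparison that the choice of members had not used, and here the members were tested. The labels do not say what a number stands for. In edgeR's quasi-likelihood test of number 2 against number 1, with the vector in the model, 51.8% of the 17781 genes had an adjusted p under 0.05, and 25.8% also differed by 0.5 or more in size on the log2 scale (1727 higher and 2852 lower in number 2). UBE2D4 passed, with a log2 difference of 0.54 (SE 0.080, edgeR adjusted p = 0.000356), or 1.45-fold. Its level was 24.5 and 22.1 CPM in the libraries numbered 2 and 15.6 and 16.5 CPM in those numbered 1, and these did not overlap. That is 1 of 4 members beside 25.8% of all genes, so the family's count was at the background.

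The remaining members did not pass this test. UBE2D1 had a log2 difference of -0.0076 (SE 0.063, edgeR adjusted p = 0.933), and 98.2% of the genes of its level had a larger one. UBE2D2 had -0.05 (SE 0.048, edgeR adjusted p = 0.429), although both libraries numbered 2 were below both numbered 1. UBE2D3 had 0.02 (SE 0.042, edgeR adjusted p = 0.72). For UBE2D4, 20.7% of the genes of its level had a larger difference.

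Genes that respond to IFN-γ moved with the replicate number as well. IRF1, a transcription factor that IFN-γ induces, was at 812.7 and 831.9 CPM in the libraries numbered 1 and at 1044 and 1077 CPM in those numbered 2. TAP1, a peptide transporter of antigen presentation, was at 783.0 and 772.5 CPM against 865.2 and 885.9 CPM. Of 7 such genes, 4 were called higher in number 2 and 0 lower, and their summed level was 4134 and 4180 CPM in number 1 and 5695 and 5640 CPM in number 2. The epithelial marker sum was 4057 and 3859 CPM in number 1 and 6403 and 6716 CPM in number 2. That sum was carried by KRT8 (log2 difference 0.79) and KRT18 (1.01), which were called higher, while CDH1 was called lower in number 2 (log2 difference -0.58, edgeR adjusted p = 1.99e-05) and EPCAM had -0.18 (edgeR adjusted p = 0.00813). The part of these differences in the result for UBE2D4 was not tested.

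Within the pathway, the same contrast called 1 of 3 UBE2E genes higher (UBE2E1) and 1 lower (UBE2E2) in number 2. It called 1 of 24 other ubiquitin E2 genes, UBE2H, which was lower (log2 difference -0.72, edgeR adjusted p = 1e-06), and none of the 8 E2 genes of other modifiers. Of 28 E3 genes, 3 were called higher and 3 lower, and of 9 E1 genes 1 was called higher. In the lists of 4 ubiquitin genes and 6 SCF genes none was called, although 2 genes of each had an adjusted p under 0.05 in edgeR's test, beside 51.8% of all genes. Of the 5 genes of ISG15 conjugation, UBA7, the E1 of ISG15, was called higher and HERC5, its E3, lower. The counts of called genes stand beside 25.8% of all genes.

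Rows related to the family carried few counts. The pseudogene UBE2D3P1 had 31 and 35 counts in control and 36 and 36 with YTHDF1, UBE2D3P2 had 2 counts in control replicate 1 and 0 elsewhere, and UBE2D3P4 and UBE2DNL had 0 counts in every library. UBE2D3-AS1, a noncoding gene on the opposite strand that overlaps UBE2D3 over 16052 bases, had 80 and 43 counts in control and 81 and 45 with YTHDF1. Its counts followed the replicate number (log2 difference -0.85, SE 0.28, edgeR adjusted p = 0.0269), in the opposite direction to UBE2D4. UBE2D4 overlaps 2 other genes, URGCP over 291 bases and the pseudogene POLR2J4 over 15242 bases. POLR2J4 had 706 and 611 counts in control and 559 and 682 with YTHDF1, which did not follow the number in both groups. Since the strand setting of the counting is not given, reads of overlapping genes cannot be told apart with certainty here.

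Patterns over the 4 libraries were compared by the Euclidean distance between centred log2 CPM values, as a description over 17780 other genes. The nearest to UBE2D1 were PDE4D, a cAMP phosphodiesterase, at a distance of 0.025, and the noncoding gene LOC729732 at 0.054. Both had low levels, with means of 0.403 and 1.71 CPM. The nearest to UBE2D2 were KRTCAP2 and PSMG2, each at 0.0049. The nearest to UBE2D3 were GPR107 (0.0066) and PTCD3 (0.0074), and the nearest to UBE2D4 were CCDC149 (0.018) and ZNF511 (0.022). Genes with flat profiles have many close neighbours on this measure, and 4 libraries give few values to compare.

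YTHDF1 binds m6A, which is most often placed in a core that reads GGACT in DNA letters. These letters were searched on the transcript strand only. They occurred once in UBE2D1 and once in UBE2D2, in the coding sequence of both, at 3 places in UBE2D3 (1 before, 1 within and 1 after the coding sequence) and at 2 places in UBE2D4, both after the stop codon. The coding matches of UBE2D1, UBE2D2 and UBE2D3 are shown with their surroundings, with the searched letters in capitals.
UBE2D1, transcript bases 649 to 653: atgcaagagaatGGACTcagaaatatgca
UBE2D2, transcript bases 1048 to 1052: tagctcgggaatGGACTcagaagtatgcg
UBE2D3, transcript bases 1115 to 1119: tatctcgggaatGGACTcagaagtatgcc

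The match density was 0.376 per kb in UBE2D1, 0.370 in UBE2D2, 0.720 in UBE2D3 and 0.503 in UBE2D4. Of 13605 genes searched alike, one transcript each, 92.5% held the letters, with a median of 0.943 matches per kb, so all 4 members were below the median. A match is not a methylated site, and m6A was not measured in these libraries.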

How the data were processed

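The authors deposited 1 table of raw read counts per gene for all 4 libraries, made from poly(A)-selected stranded RNA-seq. Per the submitters' processing notes, Trimmomatic, HISAT2 and GRCh38 were used. The counting tool, its strand setting and the annotation release are not given in the sources used here. Groups came from the sample titles. Of 46427 genes, 20072 had 0 counts in every library. Here counts were scaled by TMM and filtered by filterByExpr (17781 genes left), and CPM and fits came from edgeR 4.0.16 in R 4.3.3. Figures were drawn with matplotlib 3.10.9.

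The quasi-likelihood test compared vectors (model: group) and replicate numbers (model: group and number), with Benjamini-Hochberg adjustment over all genes tested. A gene was called when its log2 difference was 0.5 or more in size with an unadjusted p under 0.05 (vector, the study's threshold) or an adjusted p under 0.05 (number). Within-number differences used a prior count of 0.5. Nothing beyond the word biological says that replicates came from separate cultures, so p-values measure the spread between these libraries. Replicates differed beyond counting noise, and none was merged. Alternatives were DESeq2 1.42.0, other filters, a prior count of 2, YTHDF1 left out of library sizes, a replicate block and each library left out.

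The members and gene lists were chosen with earlier results of these data known. Named are the members, rows whose symbol begins with UBE2D, YTHDF1, the called genes and up to 3 genes of highest mean CPM of each list, and the 2 genes nearest to each member. Some genes that this rule names are not reported here. Positions and transcript sequences came from GRCh38 with GENCODE 29, taking the longest basic transcript with the 147-residue coding sequence for the members. The statistical code was tested on simulated data, and its recovery of vector differences was required only where the replicate numbers did not differ. The study's protein values were not used here.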

Additional observations from a re-analysis of the deposited data

How the results depend on the processing

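With 2 libraries a group, precision over the genes as a whole is limited by the replicates more than by depth. The 18 genes called between vectors became 82 (32 higher, 50 lower) without a filter on low counts. They became 46 (37 higher, 9 lower) without control replicate 1, 59 (49 and 10) without control replicate 2, 50 (3 and 47) without YTHDF1 replicate 1 and 49 (2 and 47) without YTHDF1 replicate 2, so the prevailing direction turned with the group that lost a library. DESeq2's Wald test called 3 genes at an adjusted p under 0.05, where edgeR's called 0. The fitted vector difference of UBE2D1 ran from 0.34 to 0.36 with a library left out and that of UBE2D2 from -0.0052 (without control replicate 2) to 0.066. Fits of the number difference with a library left out held no vector term, and each left 1 number with a single vector. The vector difference of UBE2D1 thus enters its number difference there, which ran from -0.19 to 0.18. It was positive without control replicate 2 (0.17) and without YTHDF1 replicate 1 (0.18). With all libraries kept, the number difference of UBE2D1 ran from -0.017 to -0.0020, with no adjusted p under 0.845 in edgeR or DESeq2. That of UBE2D4 ran from 0.47 to 0.61 with a library left out. With all libraries kept it ran from 0.53 to 0.54, with adjusted p from 2.16e-05 to 0.00652 in edgeR and DESeq2. Of 40 alternatives for the members' vector differences, 38 lay within the member's SD between replicates of the reported value. The exceptions were UBE2D1 and UBE2D2 without control replicate 2. The measure ignored sign and was wide for UBE2D4 (SD 0.387 in log2 CPM), whose values from -0.34 to 0.30 all counted as kept. For UBE2D1 the SD was only 0.0067. The lists' count of 0 called genes held in all alternatives run. Per kilobase, the share of the family taken by UBE2D1 was 7.06% in control and 8.81% with YTHDF1. Vector fits with a library left out held no number term, so the number difference of UBE2D4 enters its vector difference there. The cause of the other changes was not tested.

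The labels do not say what a replicate number shares. Libraries of the same number deviated together from their group means (r = 0.875 across genes), which is a hint from the data only. With 2 libraries a group, both numbers give this same value by construction. With the replicate number as a block, edgeR called 192 genes between vectors at the study's threshold (58 higher, 134 lower), none of them in the pathway lists. At an adjusted p under 0.05 the paired fit gave 10 genes (2 higher, 8 lower). The blocked log2 fold changes were 0.36 for UBE2D1, 0.03 for UBE2D2, 0.0044 for UBE2D3 and -0.04 for UBE2D4.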
